A study of Mus musculus with 12 samples.

Results

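The 49 genes described here encode the machinery that copies DNA in S phase, from the proteins that mark replication origins to the enzymes that supply deoxynucleotides. They were taken by symbol from a fixed list, and all 49 were found among the 17203 genes of the deposited expression table. The values came from RNA sequencing of primary CD4+ T cells, the helper branch of T lymphocytes, of C57BL/6 mice, in 4 groups of 3 libraries. Unstimulated cells were freshly isolated and given no activation. CD3 cells were activated for 72 h with plate-bound anti-CD3, an antibody against the signalling chains of the T cell receptor. CD3_CD28 cells had plate-bound anti-CD3 with soluble anti-CD28, which engages the costimulator CD28, also for 72 h. In the CD3_CD28_ICOS group cells had antibodies against all 3 receptors, each in soluble form, for 72 h, ICOS being a further costimulatory receptor of the CD28 family. The format of anti-CD3 therefore changed together with the addition of anti-ICOS, and stimulation changed together with 72 h of culture, so that neither pair can be told apart. The series' design text mentions transduction, which no sample label names. The labels leave unsaid whether libraries of 1 group stem from different mice or cultures, so p-values here measure only the spread between libraries, and that spread may be technical.

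Replication is prepared in G1, when the origin recognition complex (ORC), with Cdc6 and Cdt1, loads the ring-shaped MCM helicase onto DNA. The kinase Cdc7 with its activator Dbf4, together with Cdc45 and the GINS complex, then turns that ring into an active helicase, and DNA polymerase alpha with primase, polymerases delta and epsilon, the sliding clamp PCNA and its loader RFC copy the strands. Resting T cells lie outside the cycle and begin to divide after activation of the T cell receptor, and many S phase genes are under the control of E2F transcription factors.

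Expression is given in CPM, reads per 1e6 reads assigned to genes, which carry no correction for gene length. Depth, estimated from the smallest steps between values, was 11.4 to 37.5 times 1e6 reads a library. The CD4 T cell markers were present in every library, with Cd4 at 528 CPM or more and Cd3e at 177 CPM or more. The 12 B cell markers summed to between 124 and 155 CPM in the CD3_CD28 libraries and to between 947 and 1846 CPM in the other 9. Most of the CD3_CD28 sum was Ighm, with Ms4a1 at 0.29 and Cd79a at 0.76 CPM on average. The 8 CD8 and NK cell markers summed to between 62.5 and 109 CPM in the CD3_CD28 libraries and to between 92.1 and 184 CPM in the other 9. Among them Cd8a had means of 7.51, 9.40, 1.58 and 28.6 CPM in unstimulated, CD3, CD3_CD28 and CD3_CD28_ICOS cells, and Cd8b1 of 25.2, 16.0, 24.7 and 24.8. Myeloid markers summed to between 223 and 516 CPM in unstimulated cells and to 54.2 CPM at most after stimulation, and erythroid and platelet markers to between 107 and 196 CPM against 4.75 CPM at most. In CD3_CD28 replicate 1 a ribosomal RNA gene took 11.8% of all reads, against 1.26 to 3.20% in the other libraries, and that library was the lowest of its group for 45 of the 49 genes. CD3_CD28_ICOS replicate 1 was the highest of its group for 39 genes and replicate 3 the lowest for 41, and CD3 replicate 1, the shallowest library, was the lowest of its group for 48.

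Summed over the 49 genes, expression was lowest in unstimulated cells and highest on anti-CD3 alone, with the other 2 stimulations between. Their CPM summed to 1599, 1599 and 1611 in the unstimulated libraries, to 6095, 7069.6 and 6871 in CD3, to 2600.4, 3396 and 3560.1 in CD3_CD28, and to 3780.3, 2993 and 2584 in CD3_CD28_ICOS. The CD3 libraries all lay above the other 9, and the CD3_CD28 and CD3_CD28_ICOS libraries overlapped. The CD3 mean was 4.17 times the unstimulated mean, and the CD3_CD28 and CD3_CD28_ICOS means were 47.7% and 46.7% of the CD3 mean. In these bulk samples, fewer dividing cells and less RNA of these genes per cell cannot be told apart.

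**Figure D1:**
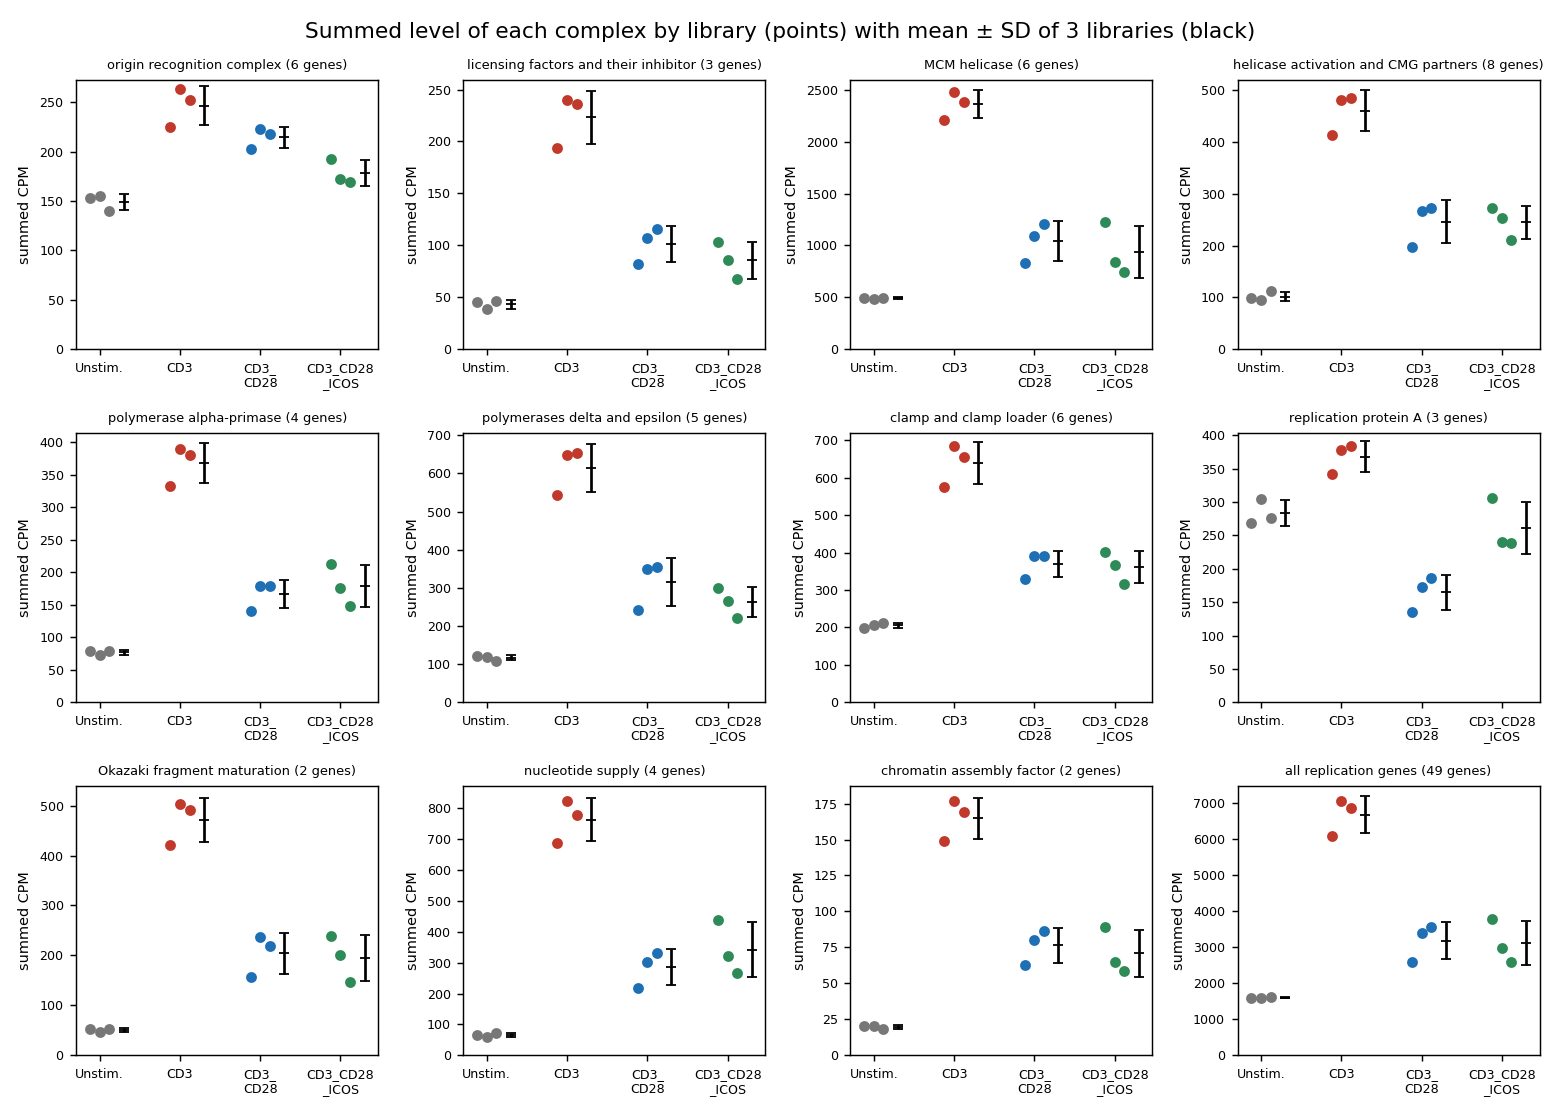
Summed CPM of the genes of each replication complex, 1 panel a complex with its own vertical axis from 0, 1 point a library and a black mark for the mean ± SD of the 3 libraries of each group. For all 49 genes together the CD3 libraries sit between 6095 and 7069.6 CPM, above the other 9 libraries.

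Tests were made on log2(CPM + 1) with limma over all 9826 genes that reached 10 CPM in at least 3 libraries, at a Benjamini-Hochberg adjusted p under 0.05, and fold changes on that scale understate the change of genes at a few CPM. All 49 genes entered the test, but 15 were under 10 CPM in every unstimulated library and so entered only through stimulated libraries. At least 3 of those had to reach 10 CPM, so that rises of these genes were partly fixed by the filter, though not in every stimulation. Gins3 and Rpa3, for example, had means of 7.09 and 8.30 CPM in CD3_CD28. Against unstimulated cells, 45 genes were higher in CD3, where 43.6% of all tested genes were higher and 26.3% lower, and 0 were lower, also at an unadjusted p under 0.05. In CD3_CD28, 38 were higher, against 36.1% of all tested genes, and 2 were lower, against 39.1%. In CD3_CD28_ICOS, 39 were higher, against 35.6% of all tested genes, and 0 were lower by limma, also before adjustment, against 23.7%. The median log2 fold changes of the 49 genes were 2.24, 1.13 and 1.15 in the 3 comparisons, beside 0.18, -0.04 and 0.08 over all tested genes. Among the 30 genes at 10 CPM or more in all 3 unstimulated libraries, 26 were higher in CD3 and 4 were not called. Of the same 30, 21 were higher, 2 lower and 7 not called in CD3_CD28, and 22 were higher and 8 not called in CD3_CD28_ICOS. These comparisons share the unstimulated libraries, whose myeloid and erythroid markers were also the highest, and the part of those cells in the differences was not tested.

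Between stimulations, 45 genes were lower in CD3_CD28 than in CD3, where 45.7% of all tested genes were lower and 18.7% higher, and 0 were higher by limma, also at an unadjusted p under 0.05. The median difference was -1.10, beside -0.24 over all tested genes, and 45 genes had CD3_CD28 libraries wholly below the CD3 libraries, as had 50.6% of all tested genes. In CD3_CD28_ICOS, 46 were lower than in CD3, against 28.7% of all tested genes, 0 were higher before or after adjustment, against 18.9%, and the median was -1.10 beside -0.07. Some genes, such as Gins1, Gins3 and Rpa3, entered the test mainly through CD3 libraries, so that their falls from CD3 were partly fixed by the filter. Of the 30 genes at 10 CPM or more in all 3 unstimulated libraries, 28 were lower and 2 not called in CD3_CD28 against CD3. In CD3_CD28_ICOS against CD3, 27 of those 30 were lower and 3 not called. The 12 B cell markers moved with the CD3_CD28 groups: 12 of 12 were lower in CD3_CD28 than in CD3, with a median of -4.75, and 12 of 12 were higher in CD3_CD28_ICOS than in CD3_CD28, with a median of 4.59. In CD3_CD28_ICOS against CD3 the B cell sums overlapped and 0 of the 12 markers passed limma's test (1 was higher at an unadjusted p under 0.05). Those 2 groups also differ in the format of anti-CD3 and in the added antibodies. The part of B cells in the differences of the replication genes was not tested in any comparison. CD3_CD28_ICOS against CD3_CD28 was called for 10 genes, 4 higher and 6 lower, where 38.5% of all tested genes were higher and 24.5% lower, and the median was -0.03 beside 0.13. An F test over the 9 stimulated libraries called 46 of the 49 genes, against 80.7% of all tested genes.

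Quantile and median-of-ratios scaling, other ways of making libraries comparable, changed the split of calls over all tested genes, under quantile scaling by over 10 percentage points in every comparison except CD3_CD28 against unstimulated. Over all tested genes, CD3_CD28 against CD3 went from 1837 higher and 4487 lower to 2916 and 3084 under median-of-ratios scaling and to 2882 and 3109 under quantile scaling, with medians of -0.03 under each. CD3_CD28_ICOS against CD3_CD28 went from 3787 higher and 2403 lower to 3075 and 3273, and to 3224 and 3115. CD3 against unstimulated went from 4280 higher and 2582 lower to 3551 and 3462, and to 3119 and 3766, with medians of 0.01 and -0.07. CD3_CD28_ICOS against unstimulated went from 3500 and 2332 to 3103 and 3195, and to 2735 and 3487, and CD3_CD28_ICOS against CD3 from 1859 and 2824 to 2378 and 2539, and to 2591 and 2542. The calls over all genes were thus split nearly evenly in the comparisons between stimulations, while the replication genes stayed mostly on 1 side in the comparisons with CD3. The replication genes had medians of 2.07 and 2.02 in CD3 against unstimulated, of -0.88 and -0.92 in CD3_CD28 against CD3 with 43 and 44 lower, and of -1.03 and -1.07 in CD3_CD28_ICOS against CD3 with 46 lower under each. In CD3_CD28_ICOS against CD3_CD28 their median was -0.18 and -0.23, with 13 and 11 lower and 3 higher under each.

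**Figure D2:**
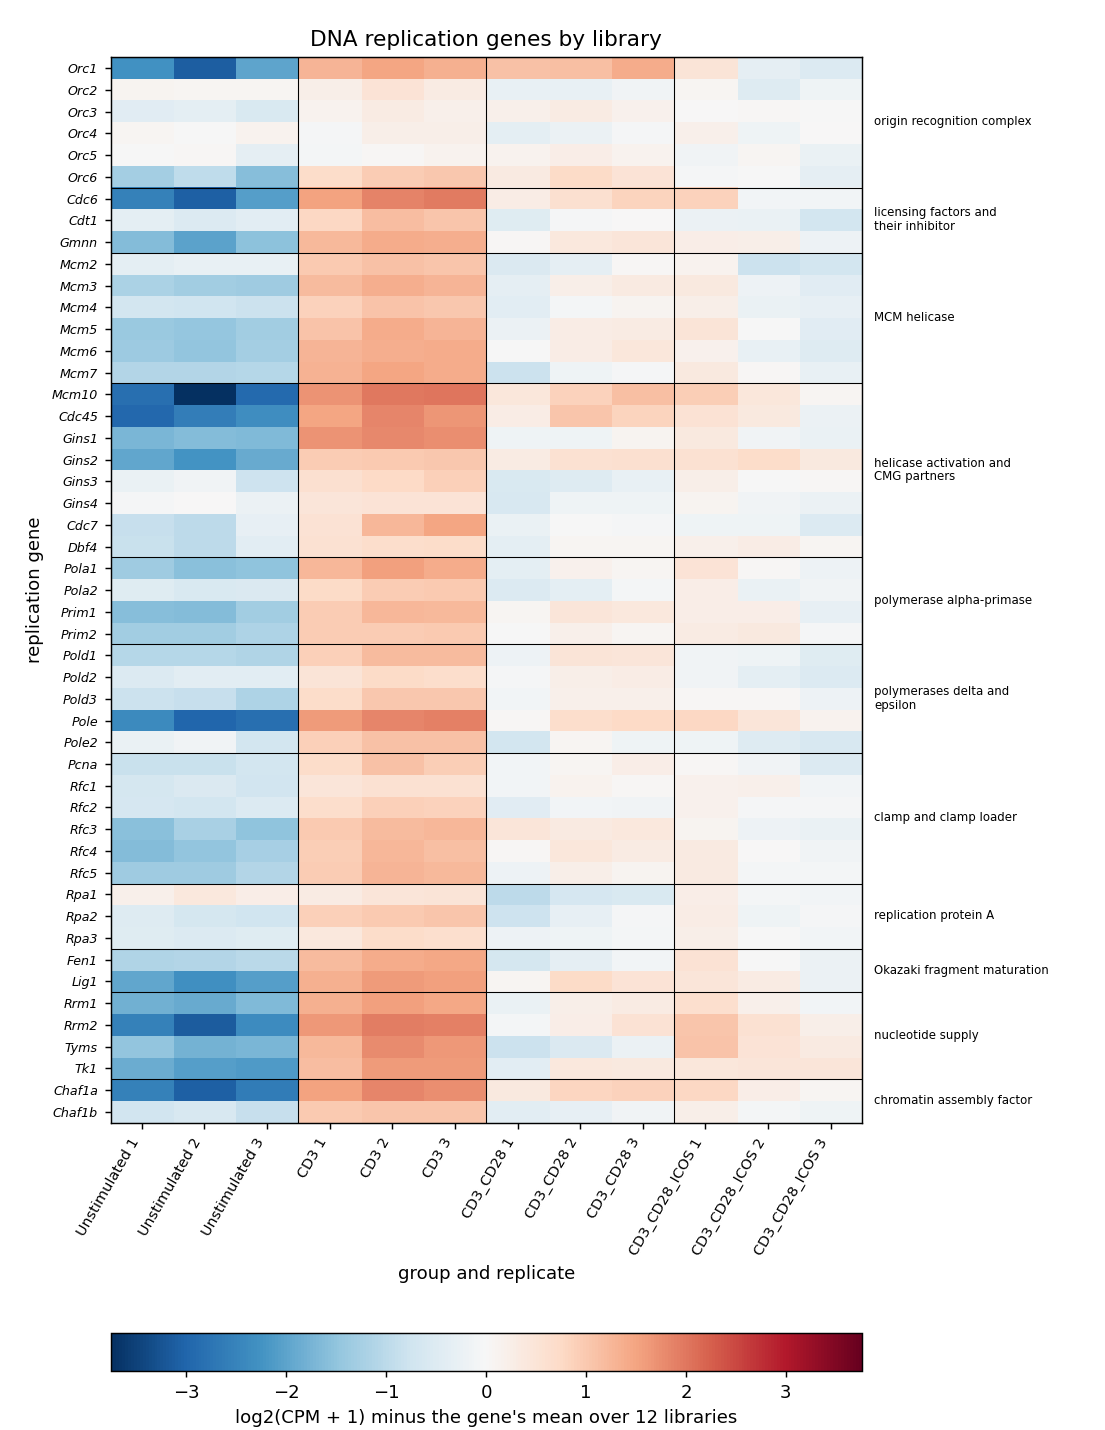
Level of each of the 49 genes in each of the 12 libraries as log2(CPM + 1) minus the gene's mean over all libraries, genes in rows ordered by complex and libraries in columns by group. The 3 unstimulated columns are low for most rows and the 3 CD3 columns high, while Orc2, Orc4, Orc5 and Rpa1 differ little between those groups.

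**Figure D3:**
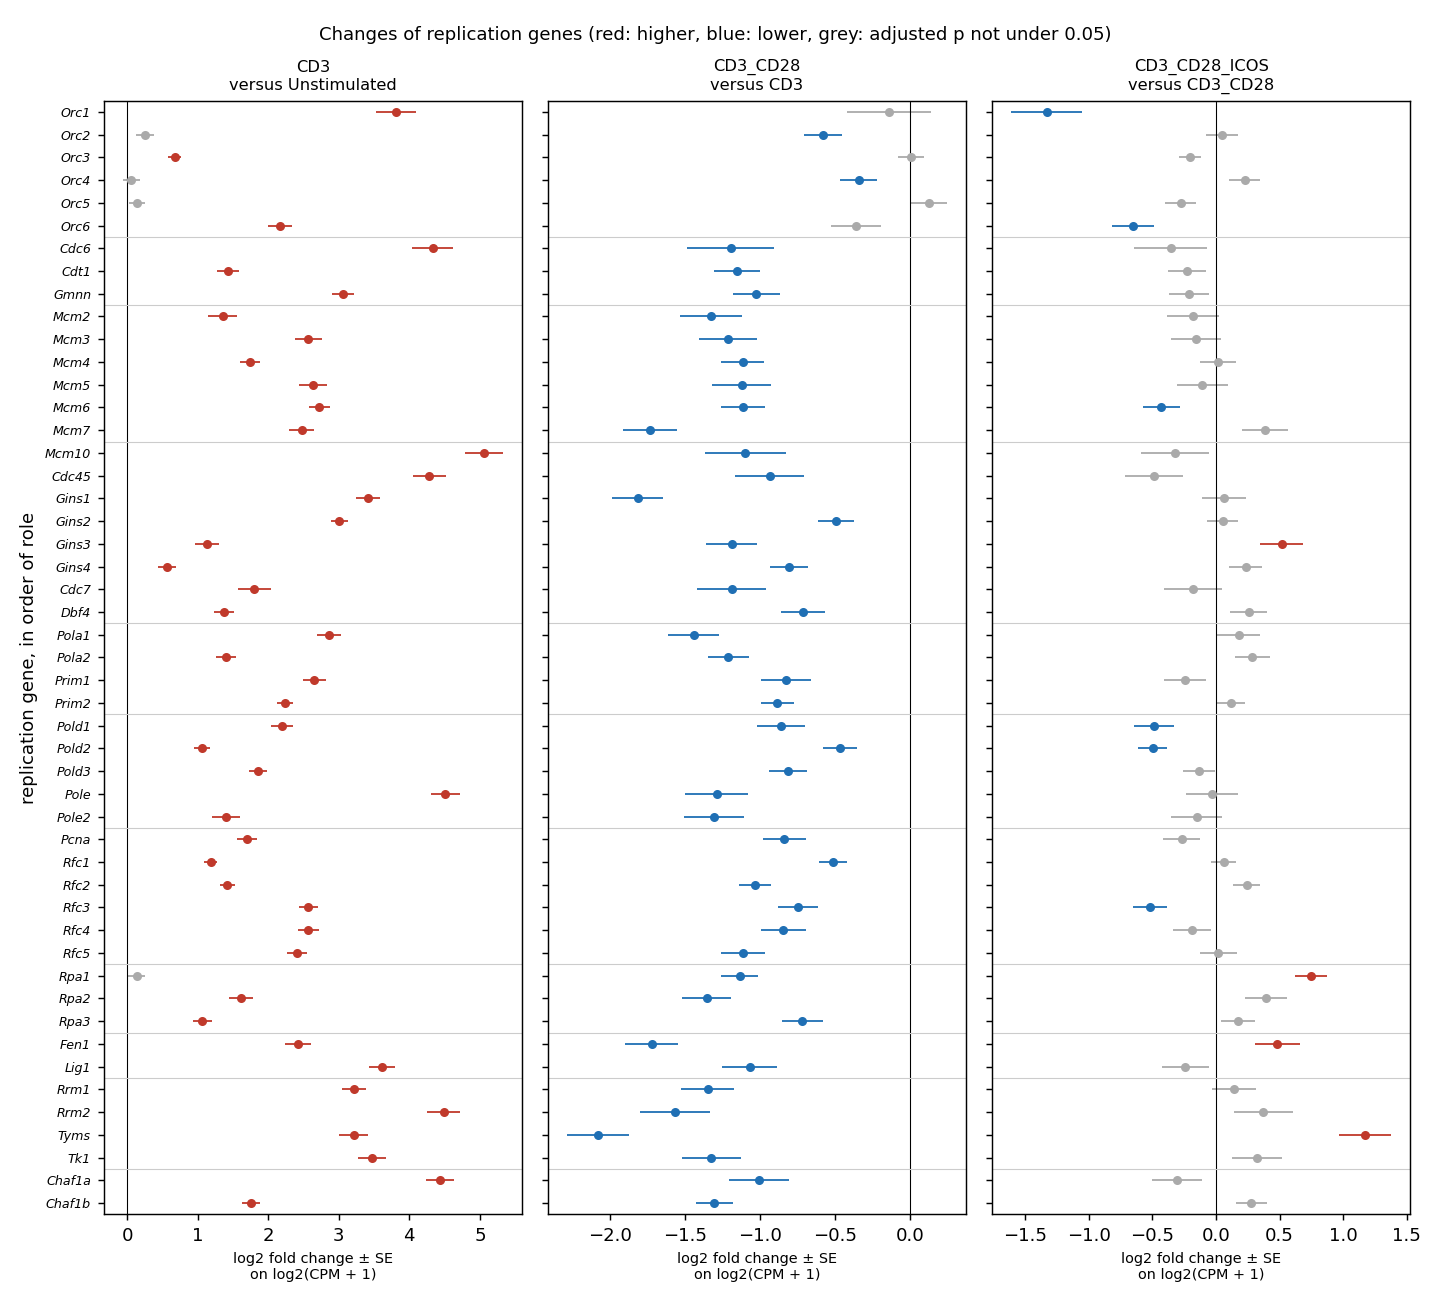
Log2 fold change with limma's SE for each of the 49 genes, in rows ordered by complex, with CD3 against unstimulated on the left, CD3_CD28 against CD3 in the middle and CD3_CD28_ICOS against CD3_CD28 on the right (red higher, blue lower, grey not called). The values run from 0.06 for Orc4 to 5.06 for Mcm10 in the left panel, from -2.08 for Tyms to 0.13 for Orc5 in the middle and from -1.33 for Orc1 to 1.17 for Tyms on the right.

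Promoter sequence was a property the choice of genes had not used. RefSeq windows from 250 bases before to 50 after a start, on GRCm38.p6, were matched by symbol for 41 of the 49 genes, 50 windows in all. An E2F-type site was searched as the letters TTTCCCGC, TTTGGCGC, TTTCGCGC or TTTGCCGC on both strands, and overlapping matches were counted separately. It was found in 30.0% of the 50 windows, against 2.26% of all 32851 windows of the table and 3.82% of the 14095 windows of genes listed in the data. The NF-Y box CCAAT was found in 52.0% of the windows against 37.4% of all, and the CHR element TTTGAA, an element of late cell cycle promoters, in 16.0% against 17.9%. Over the windows of genes listed in the data these shares were 37.9% and 12.8%, so that for TTTGAA the replication genes lay below one background and above the other. In 24 mitosis genes the shares were otherwise, as E2F letters were in 5.0% of their 20 windows, CCAAT in 85.0% and TTTGAA in 75.0%. Among other genes of the replication pathway the shares were 34.1%, 51.2% and 14.6% of 41 windows. Matches are letters in a window and not evidence of binding. The 160 bases before the start are given for 4 genes as examples of single and clustered matches outside annotated exons, written 5′ to 3′ on the gene's strand, with matches on either strand in capitals.
Mcm6 (chr1:128359706-128359865, minus strand): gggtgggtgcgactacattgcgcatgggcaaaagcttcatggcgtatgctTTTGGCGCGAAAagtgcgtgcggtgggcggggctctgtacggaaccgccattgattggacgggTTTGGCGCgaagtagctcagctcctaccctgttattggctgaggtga
Mcm5 (chr8:75109349-75109508, plus strand): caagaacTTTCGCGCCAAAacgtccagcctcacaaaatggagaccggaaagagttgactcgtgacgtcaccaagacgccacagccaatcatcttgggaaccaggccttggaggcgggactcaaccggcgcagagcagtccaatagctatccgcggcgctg
Pola1 (chrX:93632156-93632315, minus strand): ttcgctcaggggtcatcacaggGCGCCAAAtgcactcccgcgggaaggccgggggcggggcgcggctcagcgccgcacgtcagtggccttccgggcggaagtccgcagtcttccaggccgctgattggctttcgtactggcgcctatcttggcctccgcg
Cdc6 (chr11:98907991-98908150, plus strand): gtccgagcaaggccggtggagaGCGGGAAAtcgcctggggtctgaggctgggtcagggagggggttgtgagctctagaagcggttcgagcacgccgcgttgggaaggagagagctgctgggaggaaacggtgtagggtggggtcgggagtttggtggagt
Mcm6 held 3 matches, beginning 110, 106 and 47 bases before the start, the former 2 overlapping on opposite strands. Mcm5 held 2 overlapping matches at 153 and 149 bases, and Pola1 and Cdc6 held 1 each, both at 138 bases. The Cdc6 window lies within the GENCODE bounds of the gene but outside its exons. E2F letters were found for 15 of the 41 genes: Orc1, Orc3, Cdc6, Cdt1, Mcm3, Mcm5, Mcm6, Mcm7, Gins3, Pola1, Pold1, Pold3, Pole2, Rfc3 and Lig1. In CD3 against unstimulated those 15 genes were all called higher, with a median log2 fold change of 2.57 and a range of 0.67 to 4.33. The 26 genes without a match had a median of 1.78 and a range of 0.06 to 5.06, and 22 of them were called higher, beside 43.6% of all tested genes. Medians with and without a match were 1.36 and 0.69 in CD3_CD28 and 1.18 and 0.83 in CD3_CD28_ICOS against unstimulated cells. They were -1.12 and -1.05 in CD3_CD28 against CD3, and -1.34 and -1.02 in CD3_CD28_ICOS against CD3. Between CD3_CD28_ICOS and CD3_CD28 they were -0.20 and 0.05. The difference between genes with and without a match was not tested.

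**Figure D4:**
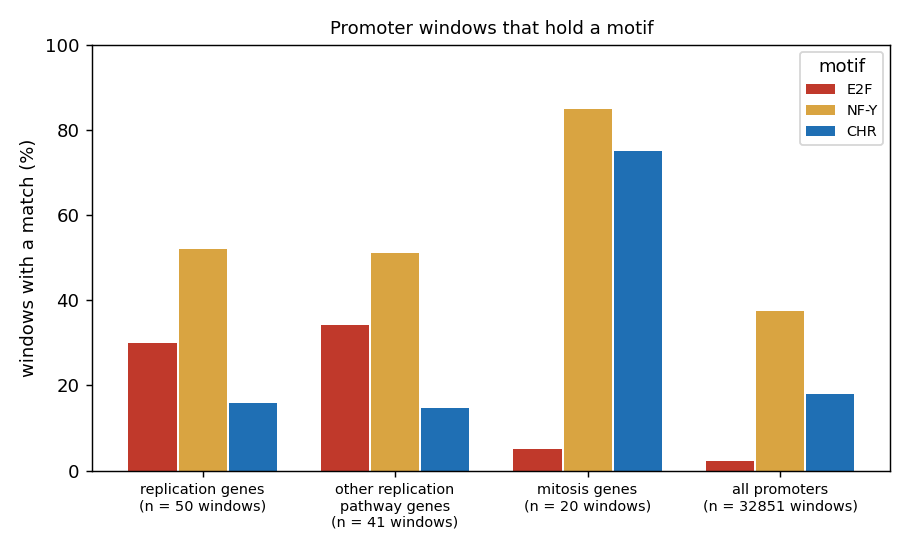
Share of RefSeq promoter windows, in percent from 0, that hold E2F-type, NF-Y or CHR letters, for the 49 replication genes, other replication pathway genes, mitosis genes and all genes of the table. E2F letters reach 30.0% and 34.1% in both replication lists against 2.26% of all windows, and CHR letters reach 75.0% in the mitosis list.

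The origin recognition complex, the 6-subunit platform that marks origins, had 3 genes that rose in every stimulation and 3 that did not. Orc1, Orc3 and Orc6 rose against unstimulated cells in all 3 stimulations, and Orc2, Orc4 and Orc5 were called higher in none of them. Orc1, its largest subunit (chromosome 4, 108579423 to 108614833), was at 0.933, 0.109 and 1.39 CPM in the unstimulated libraries, 21.8, 25.2 and 22.6 in CD3, 19.2, 19.9 and 24.1 in CD3_CD28 and 12.2, 6.54 and 5.68 in CD3_CD28_ICOS. The unstimulated libraries reached 1.39 CPM at most, and the CD3_CD28_ICOS libraries lay below those of both other stimulations. Its log2 fold change was 3.81 ± 0.28 (SE, adjusted p = 5.39e-08) in CD3 against unstimulated, -0.14 ± 0.28 (adjusted p = 0.68) in CD3_CD28 against CD3 and -1.33 ± 0.28 (adjusted p = 0.00103) in CD3_CD28_ICOS against CD3_CD28. Orc6, a small subunit needed for loading, had means of 9.51 ± 2.33, 45.7 ± 5.74, 35.4 ± 4.64 and 22.1 ± 2.7 CPM (SD, n = 3) in unstimulated, CD3, CD3_CD28 and CD3_CD28_ICOS cells. Like Orc1 it did not pass the test between CD3_CD28 and CD3 (-0.36 ± 0.16, adjusted p = 0.0685), but it did with the libraries of both groups alone (adjusted p = 0.0242), with a pseudocount of 5 (0.0454) and without CD3 replicate 1 (adjusted p = 0.0412), CD3_CD28 replicate 2 (0.0485) or unstimulated replicate 2 (0.0426) or 3 (0.0396). It was lower in CD3_CD28_ICOS than in CD3_CD28 (-0.65 ± 0.16, adjusted p = 0.00326).

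The 3 other core subunits gave small differences, some of which were called under other settings. Orc2 (44.4, 43.0 and 42.9 CPM in the unstimulated libraries, 48.1, 58.4 and 50.6 in CD3, 33.7, 33.3 and 37.0 in CD3_CD28 and 43.5, 28.9 and 36.4 in CD3_CD28_ICOS) was lower in CD3_CD28 than in unstimulated cells (-0.32 ± 0.13, adjusted p = 0.0363). That call was lost without the ribosomal RNA gene (adjusted p = 0.0699) and without any 1 of the 3 unstimulated libraries or of CD3_CD28 replicates 1 and 2 (adjusted p from 0.0607 to 0.0939). Exons of Orc2 overlap those of Nif3l1 on the opposite strand over 24.0% of their length, and whether counting used strand is not given in the sources used here. Orc2 was called higher in CD3 than in unstimulated cells (0.26) with the libraries of both groups alone (adjusted p = 0.0265) or without CD3_CD28_ICOS replicate 1 (0.0425) or 2 (0.0325). It was called lower in CD3_CD28_ICOS under both scalings and without CD3_CD28_ICOS replicate 1 (-0.41, adjusted p = 0.0097). Orc4 lay between 17.3 and 26.2 CPM in all 12 libraries and Orc5 between 24.0 and 36.0 CPM. Orc3 (43.2 ± 3.33 CPM unstimulated, 69.5 ± 4.52 in CD3, 69.8 ± 4.12 in CD3_CD28, 60.4 ± 0.966 in CD3_CD28_ICOS) rose after stimulation by 0.67 ± 0.09 in CD3 but did not pass between CD3_CD28 and CD3 (0.01 ± 0.09, adjusted p = 0.945). Orc3 and Orc5 were the only members whose mean was highest in CD3_CD28, and under quantile or median-of-ratios scaling both were called higher there than in CD3, by 0.21 and 0.22 for Orc3 and by 0.34 under each for Orc5. Under the same scalings both were called lower in CD3_CD28_ICOS than in CD3_CD28. The values were -0.31 and -0.35 for Orc3 and -0.37 and -0.42 for Orc5. Both calls were also made without the ribosomal RNA gene (adjusted p = 0.0128 and 0.022). Exons of Orc5 overlap those of Gm15421 on the same strand over 4.28% of their length. Gm15421 was listed at means of 68.8, 73.1, 131.7 and 72.0 CPM in unstimulated, CD3, CD3_CD28 and CD3_CD28_ICOS cells. Its part in the Orc5 values was not tested. Orc5 was called higher in CD3_CD28 than in unstimulated cells under median-of-ratios scaling (0.31, adjusted p = 0.0218), without the ribosomal RNA gene (0.0228) and without unstimulated replicate 2 (0.0322) or CD3_CD28_ICOS replicate 2 (0.0432). Orc4 was called lower there under quantile scaling (-0.33, adjusted p = 0.0123), without variance trend and robust fit (0.0455) and without CD3 replicate 1 (0.0478). It was so too without CD3_CD28 replicate 3 (0.0300) or CD3_CD28_ICOS replicate 1 (0.0421) or 2 (0.0387). Orc4's fall in CD3_CD28 against CD3 (-0.34 ± 0.12, adjusted p = 0.0258) was lost under both scalings (adjusted p = 0.402 and 0.297) and without any 1 of CD3 replicates 2 and 3 and CD3_CD28 replicates 1 and 2 (adjusted p from 0.0589 to 0.0987). Per kb of exon, Orc3 was the most abundant subunit transcript in every group, at 18.8 CPM per kb unstimulated and 30.2 in CD3, while Orc1 stood at 0.27 unstimulated and 7.70 in CD3. Per-kb levels divide by the merged exons of all protein-coding transcripts of a gene, so that rankings between genes are approximate here and below.

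The licensing factors rose strongly in CD3 and were lower in both other stimulations. Cdc6 (chromosome 11, 98907801 to 98923940), the ATPase that helps ORC load the helicase, went from 2.18, 1.2 and 3.48 CPM in the unstimulated libraries to 52.1, 66.3 and 70.6 in CD3, 21.7, 27.3 and 32.3 in CD3_CD28 and 32.7, 16.5 and 16.4 in CD3_CD28_ICOS. No CD3 library overlapped any other group, and the difference was 4.33 ± 0.29 against unstimulated cells (adjusted p = 4.05e-08) and -1.19 ± 0.29 in CD3_CD28 against CD3 (adjusted p = 0.00318). Cdt1, the other loader, was already at 34.9, 31.3 and 34.1 CPM in unstimulated libraries, and reached 78.4, 102 and 95.6 in CD3, 33.1, 44.1 and 46.0 in CD3_CD28 and 38.6, 38.4 and 27.8 in CD3_CD28_ICOS. It rose in CD3 alone by limma's test, by 1.43 ± 0.15, while CD3_CD28 and CD3_CD28_ICOS gave 0.28 ± 0.15 and 0.05 ± 0.15 against unstimulated cells (adjusted p = 0.111 and 0.796). The former passed without CD3_CD28 replicate 1 (0.42, adjusted p = 0.0222), the library rich in the ribosomal RNA gene. With all libraries kept, it passed under median-of-ratios scaling (0.32, adjusted p = 0.0493) and without the ribosomal RNA gene (0.33, adjusted p = 0.0472). Gmnn, which encodes geminin, the inhibitor of Cdt1, had means of 7.37 ± 1.4, 68.2 ± 4.31, 33.3 ± 4.97 and 28.7 ± 4.83 CPM in unstimulated, CD3, CD3_CD28 and CD3_CD28_ICOS cells, higher than unstimulated in all 3 stimulations and highest in CD3. Per kb of exon Cdt1 exceeded Gmnn in unstimulated cells (15.3 against 6.20 CPM per kb), and Gmnn exceeded Cdt1 in the 3 stimulated groups (57.3 against 42.1 in CD3).

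The 6 MCM genes, subunits of the replicative helicase ring, summed to 490.6 ± 7.91 CPM (SD, n = 3) in unstimulated cells, 2360.1 ± 136 in CD3, 1042 ± 194 in CD3_CD28 and 937 ± 253 in CD3_CD28_ICOS. All 6 rose in CD3 against unstimulated cells and all 6 were lower in both other stimulations than in CD3. Mcm6 (chromosome 1, 128331590 to 128359664) was at 110.3, 103 and 117 CPM in the unstimulated libraries, 705, 744 and 753 in CD3, 287, 352 and 386 in CD3_CD28 and 325, 237 and 206 in CD3_CD28_ICOS. It rose by 2.73 ± 0.14 in CD3 (adjusted p = 2.32e-09) and differed by -1.11 ± 0.14 in CD3_CD28 against CD3 (adjusted p = 2.8e-05). It was the MCM gene called lower in CD3_CD28_ICOS than in CD3_CD28 (-0.43 ± 0.14, adjusted p = 0.0194), although the libraries of those groups overlapped. This call was lost with the libraries of both groups alone (adjusted p = 0.0652) and without any 1 of CD3_CD28 replicates 2 and 3 and CD3_CD28_ICOS replicates 2 and 3 (adjusted p from 0.0544 to 0.101). Mcm2 had the smallest rise of the 6 in CD3 (1.35), with 97.7, 104 and 105 CPM in unstimulated libraries, 249.96, 275 and 265 in CD3, 87.5, 99.7 and 131 in CD3_CD28 and 139, 72.3 and 77.5 in CD3_CD28_ICOS. Only its CD3 libraries stood apart, and against unstimulated cells it gave 0.03 ± 0.21 in CD3_CD28 and -0.15 ± 0.21 in CD3_CD28_ICOS (adjusted p = 0.901 and 0.542). Without CD3_CD28_ICOS replicate 1 the latter became -0.45, lower than unstimulated (adjusted p = 0.0114). Mcm7 had the largest fall of the 6 in CD3_CD28 against CD3, -1.73 ± 0.18 (adjusted p = 5.63e-06), with 156, 176 and 164 CPM in the CD3 libraries and 35.4, 55.3 and 60.2 in CD3_CD28. Exons of Mcm7 overlap those of Ap4m1 and Cops6 on the opposite strand, over 10.8% and 2.16% of their length. Mcm3, Mcm4 and Mcm5 rose by 2.57 ± 0.20, 1.74 ± 0.14 and 2.63 ± 0.20 in CD3 and fell by similar amounts to Mcm6 in CD3_CD28 against CD3, by 1.11 to 1.21 on the log2 scale. Although the 6 proteins form a ring of equal parts, their transcripts per kb differed, from 9.74 for Mcm7 to 33.4 CPM per kb for Mcm4 in unstimulated cells and from 55.8 for Mcm7 to 168 for Mcm6 in CD3.

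The 8 genes that activate the helicase all rose in CD3 against unstimulated cells and all were lower in CD3_CD28 and in CD3_CD28_ICOS than in CD3. In CD3_CD28_ICOS against CD3 the call was lost for Dbf4 without CD3 replicate 2 (adjusted p = 0.0567) or 3 (0.0631) or CD3_CD28_ICOS replicate 3 (0.0767). It was lost for Gins2 without CD3_CD28_ICOS replicate 3 (0.0540). Mcm10 (chromosome 2, 4989714 to 5012791), a factor for helicase activation and fork progress, had the largest rise of the 49 genes, from 2.22, 0.692 and 2.04 CPM in unstimulated libraries to 72.9, 89.2 and 91.8 in CD3, with 29.6, 40.5 and 48.9 in CD3_CD28 and 42.4, 30.0 and 23.2 in CD3_CD28_ICOS. The groups before and after stimulation did not overlap, and the difference in CD3 was 5.06 ± 0.27 (adjusted p = 4.59e-09). Cdc45, which joins the MCM ring to make the active helicase, went from 2.31, 3.17 and 4.08 to 70.3, 89.5 and 79.7 CPM, a rise of 4.29 ± 0.23 (adjusted p = 3.97e-09). In CD3_CD28_ICOS against CD3_CD28 Cdc45 was not called (-0.49) but was lower under quantile (adjusted p = 0.0294) and median-of-ratios scaling (0.0241). It was so too without the ribosomal RNA gene (0.043) or replicate 1 of CD3_CD28 (0.0173) or of CD3_CD28_ICOS (0.0376). The 4 GINS genes encode a single tetramer but behaved differently. Gins1 and Gins2 rose by 3.42 ± 0.17 and 3.01 ± 0.12 in CD3, Gins3 and Gins4 by 1.13 ± 0.17 and 0.57 ± 0.13. In CD3_CD28 against CD3, Gins1 fell by 1.81 on the log2 scale, among the largest falls of the 49 genes, and Gins2 by 0.49, among the smallest. Gins1 entered the test mainly through its CD3 libraries, so that its fall was partly fixed by the filter. Gins2 lay at 65.7, 67.4 and 67.9 CPM in CD3 libraries and 41.2, 49.9 and 51.6 in CD3_CD28 libraries. Its exons overlap those of Gse1 on the opposite strand over 70.7% of their length, and its call was lost under median-of-ratios scaling (-0.28, adjusted p = 0.0533). Gse1 was listed at means of 103.6, 59.2, 63.3 and 90.6 CPM in unstimulated, CD3, CD3_CD28 and CD3_CD28_ICOS cells. The part of Gse1 in the Gins2 values was not tested. Gins3 was at 8.22, 8.89 and 5.43 CPM in unstimulated libraries, 15.7, 17.2 and 19.3 in CD3, 6.37, 6.85 and 8.04 in CD3_CD28 and 11.7, 9.72 and 10.3 in CD3_CD28_ICOS, the CD3_CD28 range lying within the unstimulated one. It was called higher in CD3_CD28_ICOS than in CD3_CD28, by 0.52 ± 0.17 (adjusted p = 0.0159), and not without replicate 1 of CD3_CD28 (adjusted p = 0.0564) or of CD3_CD28_ICOS (adjusted p = 0.0562). Its call against unstimulated cells in CD3_CD28_ICOS was lost under quantile scaling (0.07, adjusted p = 0.656), with the libraries of both groups alone (0.0720) and without unstimulated replicate 3 (0.134) or CD3_CD28_ICOS replicate 1 (0.0902) or 3 (0.0540). Under quantile scaling it was lower in CD3_CD28 than in unstimulated cells (-0.31, adjusted p = 0.0476). Gins4 had 33.1 ± 2.65, 49.4 ± 1.36, 28.1 ± 4.86 and 33.0 ± 3.85 CPM in unstimulated, CD3, CD3_CD28 and CD3_CD28_ICOS cells, and passed against unstimulated cells in CD3 only, though under quantile scaling it was also lower in CD3_CD28 (-0.27, adjusted p = 0.0252). The kinase gene Cdc7 and its activator Dbf4 rose by 1.80 ± 0.23 and 1.37 ± 0.15 in CD3. Dbf4 remained higher than unstimulated in both other stimulations, by 0.66 ± 0.15 and 0.92 ± 0.15. Cdc7 passed in CD3_CD28 (0.62 ± 0.23, adjusted p = 0.027) and not in CD3_CD28_ICOS (0.44 ± 0.23, adjusted p = 0.12), although it did there without unstimulated replicate 3 (adjusted p = 0.031) or CD3 replicate 1 (0.0484). The CD3_CD28 call was lost under quantile scaling (adjusted p = 0.0808) and without any 1 of unstimulated replicates 1 and 2 and CD3_CD28 replicates 2 and 3 (adjusted p from 0.0700 to 0.106).

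DNA polymerase alpha with primase, which lays down the RNA and DNA primers of every new strand, rose as a whole, from a sum of 76.7 ± 3.29 CPM (SD, n = 3) in unstimulated cells to 368 ± 30.7 in CD3, with 166 ± 21.5 in CD3_CD28 and 179 ± 32.6 in CD3_CD28_ICOS. Its 4 genes all rose in CD3 and in CD3_CD28_ICOS against unstimulated cells, and all but Pola2 in CD3_CD28. Pola1, the catalytic subunit (chromosome X, 93304767 to 93632155), was at 19.1, 16.2 and 16.8 CPM in unstimulated libraries, 119, 147 and 132 in CD3, 38.6, 55.5 and 52.0 in CD3_CD28 and 72.0, 51.6 and 43.7 in CD3_CD28_ICOS. The 4 groups separated except for the last 2, and the differences were 2.86 ± 0.17 in CD3 against unstimulated (adjusted p = 6.92e-09) and -1.44 ± 0.17 in CD3_CD28 against CD3 (adjusted p = 1.36e-05). Pola2, its accessory subunit, started at 35.6 ± 1.42 CPM and rose less, by 1.40 ± 0.14, and in CD3_CD28 it gave 0.19 ± 0.14 against unstimulated (adjusted p = 0.217). The primase subunits Prim1 and Prim2 rose by 2.65 ± 0.17 and 2.24 ± 0.11 in CD3 and were lower in CD3_CD28 than in CD3 by 0.82 and 0.88 on the log2 scale. None of the 4 passed between CD3_CD28_ICOS and CD3_CD28, where adjusted p ran from 0.0851 to 0.38. Pola2 did without CD3_CD28 replicate 3 (0.40, adjusted p = 0.0268) or CD3_CD28_ICOS replicate 2 (0.38, adjusted p = 0.0307).

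Of the polymerases that extend the strands, Pole, the catalytic subunit of leading-strand polymerase epsilon, had the largest rise in CD3. Pole (chromosome 5, 110286306 to 110337474) was at 12.8, 8.34 and 9.34 CPM in unstimulated libraries, 223, 261 and 269 in CD3, 74.3, 116 and 123 in CD3_CD28 and 124, 100 and 79.4 in CD3_CD28_ICOS. Its rise in CD3 was 4.51 ± 0.21 (adjusted p = 1.52e-09), while its partner subunit Pole2 rose by 1.40 ± 0.20 and was at 12.2 ± 3.38 CPM in CD3_CD28 and 10.7 ± 2.01 in CD3_CD28_ICOS beside 11.3 ± 2.28 in unstimulated cells. Exons of Pole2 overlap those of Gm49384 on the same strand over 14.4% of their length, a gene with group means of 2.92 to 5.39 CPM. The lagging-strand polymerase delta genes Pold1, Pold2 and Pold3 rose by 2.20 ± 0.16, 1.06 ± 0.11 and 1.86 ± 0.13 in CD3. Pold1, its catalytic subunit, lay at 64.7, 103 and 101 CPM in CD3_CD28 and 67.3, 66.7 and 53.8 in CD3_CD28_ICOS, overlapping ranges with a difference of -0.49 ± 0.16 (adjusted p = 0.0158) that did not pass without any 1 of CD3_CD28 replicates 2 and 3 and CD3_CD28_ICOS replicate 3 (adjusted p from 0.0717 to 0.0755). Pold2 went from 32.3, 34.8 and 34.6 CPM in unstimulated libraries to 65.9, 76.9 and 73.5 in CD3, 45.4, 53.9 and 57.03 in CD3_CD28 and 41.8, 35.8 and 32.3 in CD3_CD28_ICOS, a step down at each of the latter groups. Both steps passed, at -0.46 ± 0.11 (adjusted p = 0.003) and -0.50 ± 0.11 (adjusted p = 0.00175), and CD3_CD28_ICOS did not pass against unstimulated cells (0.10 ± 0.11, adjusted p = 0.464). Pole was the least abundant of the 5 per kb in unstimulated cells, at 1.37 CPM per kb against 20.6 for Pold2, and in CD3 the range was narrower, from 18.1 for Pole2 to 46.6 for Pold1.

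The sliding clamp and its loader rose in all 3 stimulations for all 6 genes, and all 6 were lower in CD3_CD28 and CD3_CD28_ICOS than in CD3. Pcna, the ring that holds polymerases on DNA, was at 48.8, 48.6 and 55.0 CPM in unstimulated libraries, 145, 193 and 168 in CD3, 82.3, 93.9 and 105 in CD3_CD28 and 91.9, 79.99 and 62.3 in CD3_CD28_ICOS. These values are uncertain, because the near-identical pseudogene Pcna-ps2 is listed at higher levels, 69.1 CPM in unstimulated and 243 in CD3 cells, and Pcna held 41.0 to 42.4% of the pair in every group. Their sum had means of 119.9 ± 5.49, 411 ± 37.7, 227 ± 31.8 and 189 ± 38.0 CPM (SD, n = 3), and Pcna and Pcna-ps2 gave 1.70 ± 0.14 and 1.80 ± 0.14 in CD3 against unstimulated. Rfc1, the large subunit of the loader, was at 86.6, 94.5 and 84.2 CPM in unstimulated libraries and had the smallest values of the 5 loader genes, 1.18 ± 0.10 in CD3 and -0.51 ± 0.10 in CD3_CD28 against CD3. Rfc3, Rfc4 and Rfc5 rose by 2.41 to 2.57 in CD3. Rfc3, at 4.97, 6.67 and 5.21 CPM in unstimulated libraries, 34.0, 39.0 and 41.4 in CD3, 23.2, 21.3 and 22.4 in CD3_CD28 and 17.9, 14.5 and 13.8 in CD3_CD28_ICOS, had groups that did not overlap in any pair. It was the loader gene called lower in CD3_CD28_ICOS than in CD3_CD28 (-0.52 ± 0.13, adjusted p = 0.00415). Rfc2 rose by 1.42 ± 0.11 in CD3, and its exons overlap those of Lat2 on the opposite strand over 19.1% of their length. Those of Rfc4 overlap Eif4a2 over 13.4% and those of Rfc5 overlap Wsb2 over 15.4%, both on the opposite strand. Group means ran from 138 to 277 CPM for Eif4a2 and from 27.2 to 38.7 CPM for Wsb2. The part of these genes in the loader values was not tested.

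Replication protein A, the trimer that coats single-stranded DNA, had a sum of 284 ± 19.0 CPM (SD, n = 3) in unstimulated and 368 ± 23.1 in CD3 cells, most of it from Rpa1. The ratio of these sums, 1.30, was the smallest of the 11 complexes, while by the median log2 fold change of its genes the origin recognition complex was lowest (0.47, against 1.07 here). Its large subunit gene Rpa1 (chromosome 11, 75298166 to 75348324) was at 236, 276 and 249 CPM in unstimulated libraries, 258, 287 and 292 in CD3, 106, 135 and 141 in CD3_CD28 and 250.1, 198 and 194 in CD3_CD28_ICOS. Every CD3_CD28 library lay below every other library, and the unstimulated and CD3 ranges overlapped. The differences were 0.14 ± 0.12 in CD3 against unstimulated (adjusted p = 0.333), -0.998 ± 0.12 in CD3_CD28 against unstimulated (adjusted p = 4.89e-06), -1.14 ± 0.12 in CD3_CD28 against CD3 (adjusted p = 5.37e-06) and 0.75 ± 0.12 in CD3_CD28_ICOS against CD3_CD28 (adjusted p = 0.000131). In CD3_CD28_ICOS against unstimulated cells Rpa1 was not called (-0.25 ± 0.12) but was lower under quantile (adjusted p = 0.0164) and median-of-ratios scaling (0.00773) and without CD3_CD28_ICOS replicate 1 (0.0180). Its call in CD3_CD28_ICOS against CD3 (-0.39 ± 0.12) was lost without any 1 of CD3 replicates 2 and 3 and CD3_CD28_ICOS replicates 2 and 3 (adjusted p from 0.0565 to 0.0841). B cell markers were low in the same 3 libraries, and their part in the Rpa1 difference was not tested. Rpa2, the middle subunit, rose by 1.62 ± 0.17 in CD3 from 23.8 ± 2.55 CPM, and Rpa3, the small subunit, by 1.07 ± 0.13 from 6.29 ± 0.177 CPM. Against unstimulated cells Rpa2 was not called in CD3_CD28 (0.26 ± 0.17) but was without CD3_CD28 replicate 1 (0.46, adjusted p = 0.0125). Rpa3 was called there (0.35 ± 0.13), a call lost under quantile scaling (0.04, adjusted p = 0.806), with the libraries of both groups alone (0.0556) and without any 1 of unstimulated replicates 1 and 2 and CD3_CD28 replicates 2 and 3 (adjusted p from 0.0524 to 0.0796). The Rpa3 call in CD3_CD28_ICOS was lost under quantile scaling (0.03, adjusted p = 0.871). In CD3_CD28_ICOS against CD3_CD28 Rpa2 and Rpa3 gave 0.40 ± 0.17 and 0.17 ± 0.13 (adjusted p = 0.051 and 0.28). Per kb, Rpa1 exceeded Rpa3 5.26 times in unstimulated cells and 2.00 times in CD3_CD28.

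Both genes of Okazaki fragment maturation rose after stimulation. Lig1, the ligase that seals the fragments, went from 30.4, 23.4 and 27.8 CPM in unstimulated libraries to 306, 371 and 352 in CD3, with 126, 198 and 172 in CD3_CD28 and 165, 151 and 104 in CD3_CD28_ICOS. Its rise in CD3 was 3.61 ± 0.18 (adjusted p = 2.93e-09) and CD3_CD28 and CD3_CD28_ICOS overlapped. Fen1 (chromosome 19, 10199132 to 10204169), the flap nuclease that trims them, was at 22.2, 22.8 and 24.3 CPM, 115, 132 and 139 in CD3, 30.9, 39.2 and 46.0 in CD3_CD28 and 73.6, 49.5 and 42.7 in CD3_CD28_ICOS. It fell more than Lig1 in CD3_CD28 against CD3, by 1.72 against 1.07 on the log2 scale (the difference between the genes was not tested). Fen1 was called higher in CD3_CD28_ICOS than in CD3_CD28 (0.48 ± 0.18, adjusted p = 0.0308) with overlapping libraries. That call was lost under quantile (adjusted p = 0.0551) and median-of-ratios scaling (adjusted p = 0.0852), with the libraries of both groups alone (adjusted p = 0.0849), and without CD3_CD28 replicate 1 (adjusted p = 0.136) or 2 (adjusted p = 0.056) or CD3_CD28_ICOS replicate 1 (adjusted p = 0.14). Exons of Fen1 overlap the opposite-strand gene Gm10143 over 78.8% of their length, a gene listed at 0.84 CPM or less in every group mean.

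Nucleotide supply had the largest proportional rise of any complex, from a sum of 66.2 ± 6.57 CPM (SD, n = 3) in unstimulated cells to 762 ± 69.8 in CD3, 11.5 times as much, with 284 ± 58.2 in CD3_CD28 and 342 ± 87.9 in CD3_CD28_ICOS. All 4 genes rose in all 3 stimulations and were lower in CD3_CD28 and in CD3_CD28_ICOS than in CD3. Rrm1 and Rrm2, the large and small subunits of ribonucleotide reductase, rose by 3.21 ± 0.17 and 4.49 ± 0.23 in CD3. Rrm2 (chromosome 12, 24708241 to 24714146) was at 8.17, 5.03 and 9.21 CPM in unstimulated libraries, 162, 200.1 and 195 in CD3, 49.3, 62.4 and 76.2 in CD3_CD28 and 108, 77.9 and 61.0 in CD3_CD28_ICOS. Per kb, Rrm1 exceeded Rrm2 in every group, by 13.4 against 3.41 CPM per kb in unstimulated cells and by 126 against 84.6 in CD3. Tyms (chromosome 5, 30058202 to 30073617), thymidylate synthase, which makes the thymidine nucleotide anew, had the largest fall of the 49 genes in CD3_CD28 against CD3 and the largest rise in CD3_CD28_ICOS against CD3_CD28. It was at 3.64, 2.81 and 2.91 CPM in unstimulated libraries, 29.4, 43.7 and 39.3 in CD3, 6.46, 7.83 and 10.0 in CD3_CD28 and 26.3, 17.6 and 15.4 in CD3_CD28_ICOS. No 2 groups overlapped. Its fall and rise at CD3_CD28 were partly fixed by the filter, as Tyms entered the test mainly through CD3 and CD3_CD28_ICOS libraries. It rose by 3.21 ± 0.21 in CD3 (adjusted p = 1.01e-08), fell by 2.08 on the log2 scale in CD3_CD28 against CD3 (adjusted p = 3.06e-06), and was higher in CD3_CD28_ICOS than in CD3_CD28 by 1.17 ± 0.21 (adjusted p = 0.00024). The copy Tyms-ps was listed at 0.28 to 2.72 CPM, and reads that fit both cannot be assigned to either. Tk1, thymidine kinase 1 of the salvage route to the same nucleotide, was at 2.62, 2.11 and 2.00, 28.2, 38.5 and 38.9, 8.97, 16.4 and 15.9 and 16.7, 16.9 and 17.1 CPM in unstimulated, CD3, CD3_CD28 and CD3_CD28_ICOS libraries. Unlike Tyms it did not pass between the last 2 groups (0.33 ± 0.20, adjusted p = 0.163), and whether the genes differ in that respect was not tested.

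The chromatin assembly factor, which places histones on new DNA, rose in all 3 stimulations for both genes. Chaf1a, its large subunit, was at 4.96, 3.06 and 4.5 CPM in unstimulated libraries, 96.2, 121 and 114 in CD3, 43.2, 59.1 and 62.2 in CD3_CD28 and 58.4, 40.2 and 35.2 in CD3_CD28_ICOS, and rose by 4.44 ± 0.20 in CD3 (adjusted p = 8.28e-10). Chaf1b, from a mean of 15.5 ± 1.65 CPM, rose by 1.76 ± 0.12. Per kb Chaf1b exceeded Chaf1a 10.5 times in unstimulated cells and 1.40 times in CD3. Exons of Chaf1a overlap those of Ubxn6 on the opposite strand over 33.6% of their length.

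**Figure D5:**
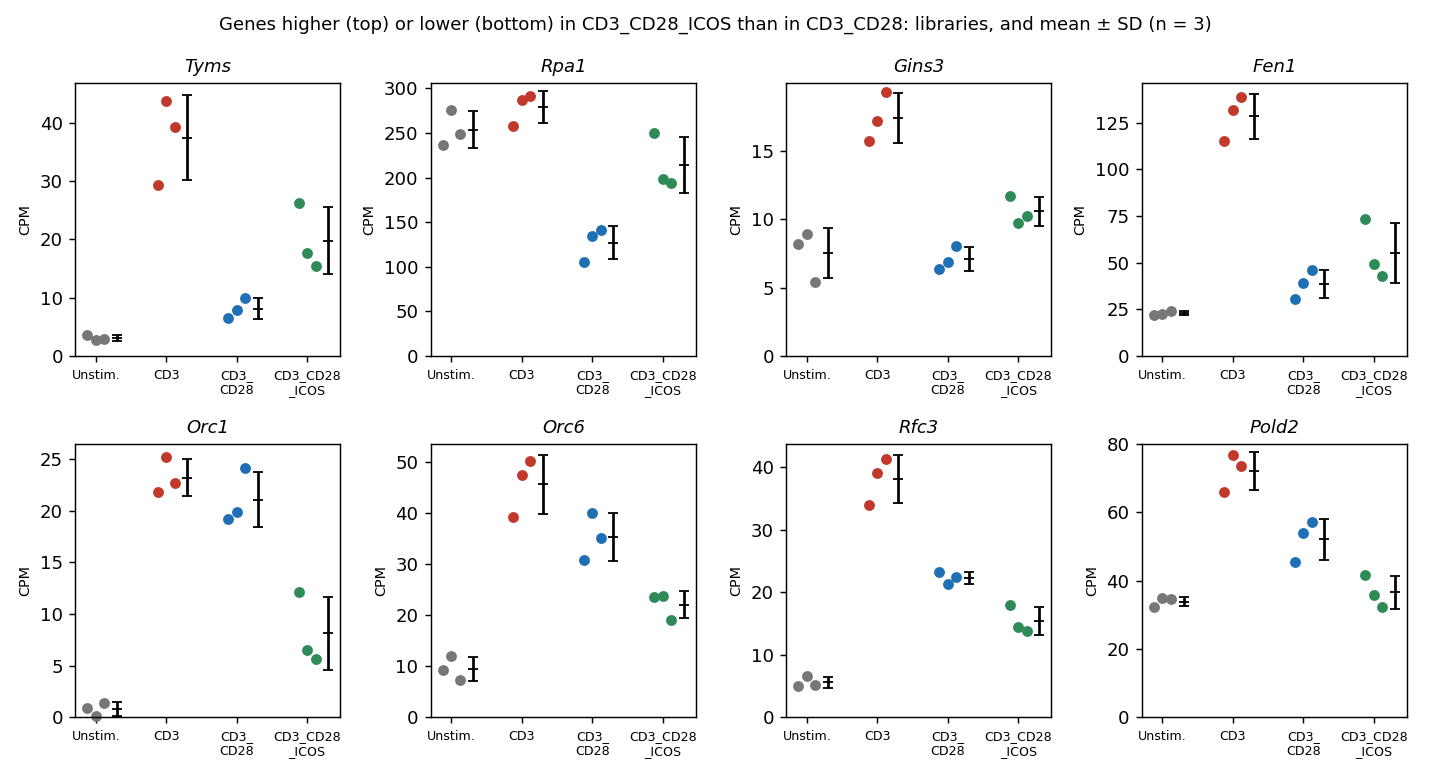
CPM of 8 of the 10 genes called between CD3_CD28_ICOS and CD3_CD28 (all but Mcm6 and Pold1), 1 panel a gene with its own axis from 0, 1 point a library and a black mark for the mean ± SD of 3 libraries. Tyms and Rpa1 are lowest among stimulated cells in CD3_CD28, while Orc1 is lowest among them in CD3_CD28_ICOS.

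Across complexes, 36 of the 49 genes were higher than in unstimulated cells in all 3 stimulations, 5 in 2 of them (Gins3, Cdc7, Pola2, Pold2 and Rpa2), 4 in CD3 only (Cdt1, Mcm2, Gins4 and Pole2) and 4 in none (Orc2, Orc4, Orc5 and Rpa1). Of all tested genes, 43.6%, 36.1% and 35.6% were higher in CD3, CD3_CD28 and CD3_CD28_ICOS, and the share higher in all 3 was not computed. Of the calls for the 49 genes, those of Rpa3 (among the 36), Gins3, Cdc7, Cdt1, Pola2, Rpa2, Orc2 and Orc5 changed under settings given with each gene. Pola2 passed in CD3_CD28 without replicate 1 of both costimulated groups (0.28, adjusted p = 0.0401). CD3 had the highest mean for 47 genes. Of the 45 genes lower in CD3_CD28 than in CD3, 4 were called higher again in CD3_CD28_ICOS than in CD3_CD28 (Gins3, Rpa1, Fen1 and Tyms), 4 were called lower still (Mcm6, Pold1, Pold2 and Rfc3) and 37 were not called. Orc1 and Orc6 were called lower in CD3_CD28_ICOS without a call between CD3_CD28 and CD3. The number lower in CD3_CD28_ICOS than in CD3_CD28 moved from 6 to 11 under quantile and to 13 under median-of-ratios scaling, and to 11 without CD3_CD28_ICOS replicate 1, the library with the highest values of its group. Leaving out replicate 1 of both groups together, a setting chosen after seeing the data, gave 19 lower and 2 higher. In the authors' deposited table, at a false discovery rate under 0.05, 42 of the 49 genes were higher in PB_CD3 than in Control, where 26.1% of all genes with a value passed in either direction. In the authors' deposited table, 36 genes were higher in PB_CD3 than in PB_CD3_CD28, against 17.0% in either direction, and Rpa1 and Tyms alone passed between Combo_Costim and PB_CD3_CD28, both higher in the former, against 19.5% of all genes. The group names there are the authors'.

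A list of 48 other genes of the replication pathway, covering fork protection, chromatin, nucleotide pools and cyclin E, was tested alongside and all 48 were measured. In CD3 against unstimulated cells 39 were higher and 3 lower, against 43.6% and 26.3% of all tested genes. In CD3_CD28 against CD3, 2 were higher and 43 lower, against 18.7% and 45.7%. The largest rises in CD3 were those of Top2a, the topoisomerase that untangles daughter duplexes (5.47 ± 0.24, also a member of the mitosis list below), the PCNA-associated factor gene Pclaf (5.39 ± 0.25) and Dtl, which targets Cdt1 for destruction (5.32 ± 0.28). The 3 falls were Rrm2b, the p53-induced small subunit of ribonucleotide reductase (-1.53 ± 0.14), Pole4 (-0.69 ± 0.11), a small subunit of polymerase epsilon, and Chtf8, of an alternative clamp loader (-0.29 ± 0.11). Rrm2b thus fell in CD3 from 38.3 ± 7.03 to 12.5 ± 0.23 CPM (SD, n = 3) while its alternative Rrm2 rose. In CD3_CD28 against CD3 the largest falls were Dtymk, thymidylate kinase, the step after Tyms (-1.79 ± 0.18), the histone chaperone Asf1b (-1.70 ± 0.16) and Pclaf (-1.68 ± 0.25). Pold4, the smallest subunit of polymerase delta, was higher in CD3_CD28 than in CD3 (0.84 ± 0.12, adjusted p = 5.72e-05), unlike Pold1, Pold2 and Pold3, and so was Rrm2b (0.66 ± 0.14). Between CD3_CD28_ICOS and CD3_CD28, 11 were higher and 4 lower, smaller shares of the 48 than the 38.5% and 24.5% of all tested genes. Samhd1, which degrades deoxynucleotides, had means of 640 ± 31.9, 1257 ± 92.9, 457 ± 13.1 and 2087 ± 391 CPM in unstimulated, CD3, CD3_CD28 and CD3_CD28_ICOS cells, a difference of 2.17 ± 0.12 between the last 2 (adjusted p = 1.13e-08). Dck, the salvage kinase for deoxycytidine, and Donson, a factor for helicase assembly, were higher there by 1.44 ± 0.12 and 1.09 ± 0.10, and Mcm8, Pold4 and Cdc25a were lower by 0.73, 0.63 and 0.57 on the log2 scale. B cell markers rose in that comparison too, and their part in the Samhd1, Dck and Donson differences was not tested.

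For comparison with another cell cycle phase, 24 mitosis genes gave medians of 5.31 in CD3 against unstimulated, -0.89 in CD3_CD28 against CD3, with 21 lower against 45.7% of all tested genes, and 0.32 in CD3_CD28_ICOS against CD3_CD28, with 8 higher, a share near the 38.5% of all tested genes. In CD3_CD28_ICOS against CD3 their median was -0.59, with 14 lower against 28.7% of all tested genes, beside -1.10 for the replication genes. The summed CPM of the replication genes was 7.54 to 12.7 times that of the mitosis genes in unstimulated libraries, 0.965 to 1.02 times in CD3, 0.739 to 0.932 times in CD3_CD28 and 0.579 to 0.827 times in CD3_CD28_ICOS. The CD3 libraries lay above those of the other stimulations in this ratio, and the difference between the lists was not tested.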

How the data were processed

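RNA sequencing of 12 libraries of mouse CD4+ T cells, 4 groups of 3, was analysed from the deposited tables. The deposited CPM values of 17203 genes sum to 1e6 in each library after an offset of 0.0001, and per the submitters' processing notes Partek 10, DESeq2 and mm10 were used, with aligner, counter, annotation and strand use not given in the sources used here. The authors' deposited table also holds false discovery rates (q-values), log2 ratios and fold changes of their own comparisons, from which members' counts past 0.05 were copied. No column of the tables was left unmatched to a group or comparison. Low CPM values are near whole multiples of a step, within 0.02 steps for 76.0 to 80.6% of values per library, too few for a count test, and the step gave the depths.

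Groups follow the labels. Genes reaching 10 CPM in 3 libraries or more were tested on log2(CPM + 1) with limma 3.58.1 in R 4.3.3, with a mean per group over all 12 libraries, an intensity trend and robust variances, two-sided, with Benjamini-Hochberg adjustment over all 9826 genes. The script was tested on simulated data. Sums, means and SDs are in CPM. Per-kb levels and overlaps used GENCODE M21 exons (GRCm38, the same build as mm10), in which all 49 symbols matched. Any of the 49 genes could be named, and of the other pathway genes the 3 called genes with the largest rise and the 3 with the largest fall in a comparison. The members and lists were chosen with earlier results of these data known. Alternatives were other pseudocounts (0.1 and 5), low-value filters, scalings and variance settings, the libraries of each pair of groups alone, a replicate block, omission of the ribosomal RNA gene and of each library in turn.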

Additional observations from a re-analysis of the deposited data

How the results depend on the processing

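Over 6762 values, the 49 genes in each comparison under each alternative, 6610 kept their side of the threshold, 93 gained a call, 58 lost one and 1 gained a call with the opposite sign. Of the 6610, 86 were called in neither fit and differed in sign. The 1 with a call was Mcm4 in CD3_CD28_ICOS against CD3_CD28, -0.30 without replicate 1 of both groups together (adjusted p = 0.0192), the setting chosen after seeing the data. The number of genes higher in CD3_CD28 than in CD3 went from 0 to 2 under quantile and to 2 under median-of-ratios scaling, and the number lower in CD3_CD28 than in unstimulated cells from 2 to 5 under quantile scaling and to 1 without the ribosomal RNA gene, with 1 to 3 when single libraries were left out. In CD3_CD28_ICOS against CD3_CD28, the 4 higher became 2 without replicate 1 of both groups, and 2 to 8 without single libraries. There the 6 lower became 11 under quantile scaling, 13 under median-of-ratios scaling and 19 without replicate 1 of both groups, and 4 to 11 without single libraries. The 0 lower in CD3_CD28_ICOS than in unstimulated cells became 2 under quantile scaling, 2 under median-of-ratios scaling and 3 without replicate 1 of both groups, and 0 to 3 without single libraries, the 3 arising without CD3_CD28_ICOS replicate 1. The cause of these shifts was not tested. The other counts ranged, without single libraries, from 45 to 46 higher in CD3 than unstimulated, 44 to 46 lower in CD3_CD28 than in CD3, 36 to 40 higher in CD3_CD28 than unstimulated, 43 to 46 lower in CD3_CD28_ICOS than in CD3, 38 to 40 higher in CD3_CD28_ICOS than unstimulated, and 46 to 48 in the F test.

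The groups share replicate numbers, but only 6 of 18 same-numbered pairs had correlated deviations above 0.1 (r from -0.0999 to 0.408), so the numbers were not taken to pair the libraries. Between CD3 and CD3_CD28_ICOS the same-numbered r were 0.0879, 0.408 and 0.335, and the other r ran from -0.314 to 0.132. Between CD3 and CD3_CD28 the same-numbered r were 0.113, 0.205 and 0.058, and the other r ran from -0.144 to 0.0326. Pairing in either comparison is therefore not excluded. With a replicate block the counts were 45 higher in CD3 than unstimulated, 46 lower in CD3_CD28 than in CD3 (Orc6 added, -0.36, adjusted p = 0.0468), 38 higher and 2 lower in CD3_CD28 than unstimulated, 46 lower in CD3_CD28_ICOS than in CD3, 4 higher and 6 lower in CD3_CD28_ICOS than in CD3_CD28, 39 higher in CD3_CD28_ICOS than unstimulated and 46 in the F test. With 3 libraries a group and SEs of 0.088 to 0.287 on the log2 scale, a difference that missed the threshold is not shown to be absent.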
